A study of Mus musculus with 5 samples.

Results

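The regions described here were marked by trimethylated lysine 4 of histone H3 (H3K4me3) in mouse dendritic cells of both conditions, with and without a histone deacetylase inhibitor, and lay far from the gene start listed beside them. A region was a member when it stood in the diluent H3K4me3 list against IgG, was at most 5000 bp wide, overlapped a region of the SAHA H3K4me3 list by at least 1 bp, and had its midpoint more than 20 kb from the start of the transcript in its own row. The rule took 3514 of the 22255 regions of the diluent list, or 15.8%. The members were thus selected on H3K4me3 calls in both conditions, and their H3K4me3 tags, widths and ratios are given as descriptions, without a test.

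The study asked where STAT3 lies on the genome of dendritic cells when histone deacetylases are inhibited. Marrow of female C57BL/6 mice, 10 weeks old, was grown for 7 days in GM-CSF and IL-4 (10 ng/mL each), and CD11c cells were isolated at 95% purity. The cells then spent 12 hours in SAHA (vorinostat, dose labelled 500 nm) or in the diluent alone. Chromatin immunoprecipitation and sequencing (ChIP-seq) gave 5 libraries, 1 per group: STAT3 in SAHA, H3K4me3 in SAHA, STAT3 in diluent, H3K4me3 in diluent, and IgG in diluent. IgG from diluent cells served for both conditions, and the labels do not say how many mice gave marrow. With 1 library per group no difference between conditions has a replicate check, and all intervals below cover counting error only.

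H3K4me3 is written by SET1 and MLL methyltransferases and is known best as a mark of active gene starts. Away from annotated starts, weaker H3K4me3 is known at active enhancers and at starts that an annotation does not hold. STAT3 is a transcription factor activated by the receptors of cytokines such as IL-6 and IL-10, and SAHA raises histone acetylation by inhibiting histone deacetylases.

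Several strong or grouped members were listed for microRNA genes. The short mature RNAs of some microRNA genes with members are shown, because the listed gene of such members is that RNA and not a protein. Mir29a, whose member held only 58 diluent tags, is shown beside Mir29b-1. Mature sequences are from RefSeq (GRCm38.p6), 5′ to 3′, and the capitals mark the seed, bases 2 to 8, which pairs with target RNAs.
Mir148a, miR-148a-3p: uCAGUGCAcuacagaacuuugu
Mir181a-1 and Mir181a-2, miR-181a-5p: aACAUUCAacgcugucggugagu
Mir29a, miR-29a-3p: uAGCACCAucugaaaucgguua
Mir29b-1, miR-29b-3p: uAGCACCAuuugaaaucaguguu
Mir29a and Mir29b-1 share the seed AGCACCA and are neighbours on chromosome 6, while Mir181a-1 and Mir181a-2 give the same mature RNA from chromosomes 1 and 2. In all, 30 microRNA genes were listed for 48 members, 12 of them for more than 1, and 25 matched the RefSeq table.

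The members were weaker and narrower than regions at gene starts, but had a similar median fold enrichment over local background. They held a median of 70 diluent tags (quartiles 40 and 147, n = 3362 with a count), against 624 in the other 16696 shared regions of the same width limit. Their median width was 1012 bp (quartiles 752 and 1404, range 181 to 4856 bp), against 1949 bp in the other shared regions. In contrast, the fold enrichment over the local background of the library, from the authors' deposited tables, had a median of 11.3 in members and 11.4 in the others. These values come from calls without a control, and a member of Hfe2 with 3408 diluent tags had only 4.91. Similar medians in sets of unlike width therefore do not show an equal standing over background. Shared regions 5 to 20 kb from their listed start resembled the members more than start regions did, with a median of 81 tags and 1105 bp. Regions within 1 kb of a start had a median of 850 tags.

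**Figure D1:**
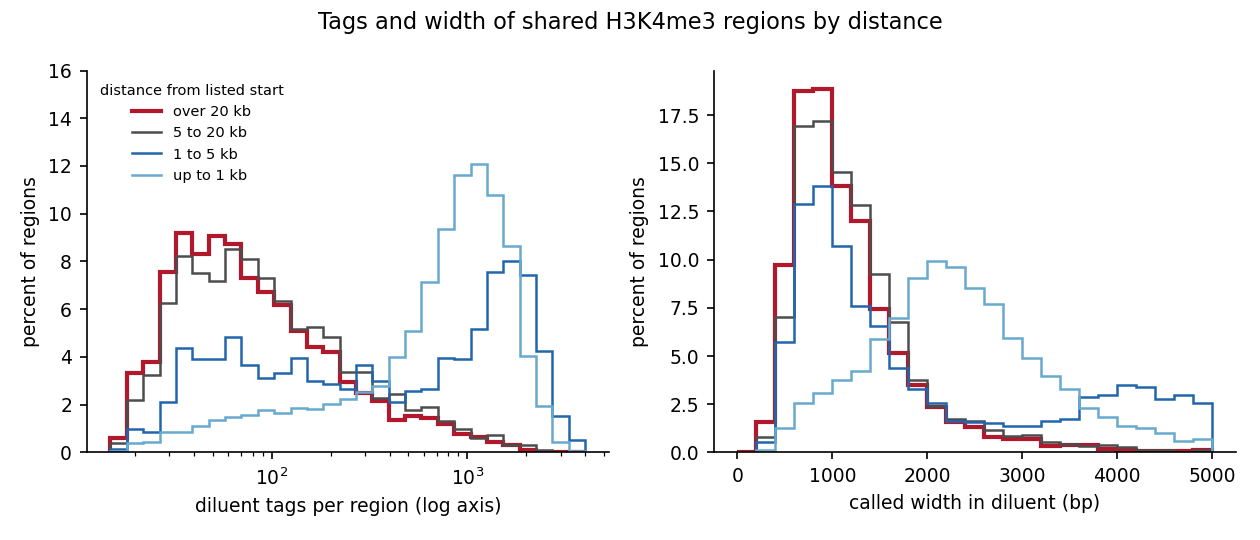
Percent of shared H3K4me3 regions by diluent tags (left, log axis) and by called width in bp (right), for regions over 20 kb from their listed start (red, the members) and for 3 nearer classes. The members and the 5 to 20 kb class peak below 100 tags and near 1000 bp, whereas regions up to 1 kb from a start peak at about 1000 tags.

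Strong regions were rare among the members. Of 3362 members with a count, 64 (1.90%, exact 95% interval 1.47 to 2.42%) had at least 1000 diluent tags, against 4258 of 10582 regions (40.2%) within 1 kb of a start. At the other end, 1182 members (35.2%) had fewer than 50 tags, against 4.03% of the regions within 1 kb. Sharing with SAHA was counted by distance too: 3527 of 3995 such regions of any width (88.3%, 87.2 to 89.3%) overlapped a SAHA region, against 17531 of 18259 nearer ones (96.0%, 95.7 to 96.3%). This difference was not tested, since neighbouring regions are not independent.

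The median member lay 41.8 kb from its listed start (quartiles 27.9 and 72.8 kb), and the farthest 1780 kb away. Of the members, 555 (15.8%) lay beyond 100 kb and 44 beyond 500 kb. Relative to the listed transcript, 1709 members (48.6%) were upstream, 739 (21.0%) inside and 1066 (30.3%) downstream. Positions refer to the transcript of that row alone, so a region upstream of a short transcript may lie inside a longer one of the same gene. Among the starts named in the 4 lists, 2 members had one within 20 kb. Starts not listed beside any region were not searched, so this count does not show that the members lie far from every annotated start. IgG regions overlapped 6 members (0.171%), against 16 other shared regions (0.0958%).

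The members nearest to the limits show what the rule cut. Just beyond 20 kb were members of Bcl2a1b (20.003 kb), Haus6 and AK014964 (20.015 kb each), and just within it, and left out, regions of Ccl5, Tnfrsf21 and AK138462 at 20, 19.993 and 19.989 kb. The widest members, of Fabp7, Hfe2 and mKIAA0970, measured 4856, 4849 and 4841 bp, and the narrowest regions left out, of Fnip2, Ptk2b and Ly6e, 5054, 5070 and 5352 bp. The width limit removed 13 regions, among them a region of Pim1, a STAT3-responsive kinase gene, with 2110 diluent tags and a SAHA STAT3 region.

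The strongest members had H3K4me3 tag counts at the level of start regions in both conditions. Their diluent fold enrichment over local background was lower, at 4.91 to 10.8 in the 10 strongest named members. Regions within 1 kb of a start had a median of 11.9. A member of Hfe2 (hemojuvelin, a co-receptor in iron control), at chr3:96302725-96307573 on mm9, held 2505 tags in SAHA and 3408 tags in diluent, the most of any named member. Members of Nlrp4f, an NLR family gene, and Olfr1423, an olfactory receptor gene, had 1618 and 1602 tags in SAHA, against 1882 and 1848 tags in diluent. None of these 3 genes had an H3K4me3 region within 2 kb of a listed start, nor did Mir181a-1 or Akap2 below. For Mir181a-1, the start of any longer transcript that holds the microRNA was not examined. The member of Mir181a-1, at chr1:139794419-139798148, was 66.7 kb upstream of the microRNA and had 1464 tags in SAHA and 1656 tags in diluent. Further strong members were listed for Rbx1, the RING subunit of cullin ubiquitin ligases (1334 tags in SAHA, 1751 in diluent), and Akap2, an anchor of protein kinase A (1500 in SAHA, 1615 in diluent). A member of Commd3 had 1695 tags in SAHA and 1725 in diluent and carried a SAHA STAT3 region. Across these named pairs the depth-scaled log2 ratio of SAHA over diluent tags lay between -0.38 (Hfe2, 95% interval -0.45 to -0.30) and 0.04 (Commd3, -0.06 to 0.14), so all were within 2-fold.

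The remaining strong members came from 1 array of near-identical gene copies. On chromosome 6, from 47600259 to 47636871, 9 members followed each other within 36.6 kb, 6 listed for Ezh2, a histone H3 lysine 27 methyltransferase, and 3 for Rn4.5s, a repeated small RNA gene. The tags there, such as 1671 in SAHA and 1839 in diluent at the strongest Ezh2 member, are uncertain because reads of repeated copies can be placed at any of them.

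Members often came in groups on 1 gene. They were listed for 2448 genes, which is 17.3% of the 14122 genes of the diluent list. Of these genes, 1803 had 1 member, 645 had 2 or more, 229 had 3 or more and 44 had 5 or more. The 645 genes held 1711 members, or 48.7% of all. Many groups were spread out rather than adjacent: joined across gaps of up to 10 kb, the members formed 3052 groups, of which 2693 were single regions and 359 held 821 members.

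Most members on 1 gene were found at Kctd12 and Bcor. Kctd12 (an auxiliary subunit of GABA-B receptors) and Bcor (a corepressor that binds BCL6) had 9 members each. Among named genes, Chd7 (a chromatin remodeller) and Trio (a guanine nucleotide exchange factor) had 8 each. So did Med13l (a Mediator subunit) and Eea1 (an early endosome tether). Besides Ezh2, 7 members were listed for Rere (a corepressor), Arid1b (a subunit of SWI/SNF remodellers) and Pde4d (a cyclic AMP phosphodiesterase). The members of Kctd12 ran from 25.1 to 367 kb from their listed start and had between 36 and 644 diluent tags.

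Most but not all such genes also carried H3K4me3 at a start. A diluent region overlapped the 2 kb around a listed start in 1691 of the 2448 genes with a member (69.1%, 67.2 to 70.9%) and in 491 of the 645 with several (76.1%). Over all genes of the list the share was 88.0%. To show a start with the mark and one without, the promoter of the named gene with the most members of each kind is given. Unnamed genes were passed over. Each promoter is the 250 bases before the RefSeq start (GRCm38.p6), with CG pairs in capitals, searched on the strand shown.
Kctd12, chr14:102982638-102982887, minus strand: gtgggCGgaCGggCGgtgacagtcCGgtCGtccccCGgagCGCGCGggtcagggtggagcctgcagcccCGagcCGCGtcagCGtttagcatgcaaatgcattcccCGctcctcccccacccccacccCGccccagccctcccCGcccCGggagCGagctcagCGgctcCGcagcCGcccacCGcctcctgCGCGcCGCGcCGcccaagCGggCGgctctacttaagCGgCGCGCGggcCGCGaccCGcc
Slc22a16, chr10:40570112-40570361, plus strand: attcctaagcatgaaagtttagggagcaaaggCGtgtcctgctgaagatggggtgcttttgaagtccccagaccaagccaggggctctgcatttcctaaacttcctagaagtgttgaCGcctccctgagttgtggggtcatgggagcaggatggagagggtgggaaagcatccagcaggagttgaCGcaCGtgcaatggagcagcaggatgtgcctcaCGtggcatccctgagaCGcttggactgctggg
Kctd12, with a marked start, had 36 CG pairs in this window, and 2.58% of the 32851 promoters in the table had as many. Slc22a16 (a carnitine transporter gene), with 5 members and no marked start, had 6 CG pairs, and 50.4% of the promoters had as many. The 5 members of Slc22a16 all lay upstream, 44.6 to 108 kb from the start, with 66 to 176 tags in SAHA and 46 to 210 tags in diluent. No mm9 genome was used, so the members' own sequences are not shown.

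**Figure D2:**
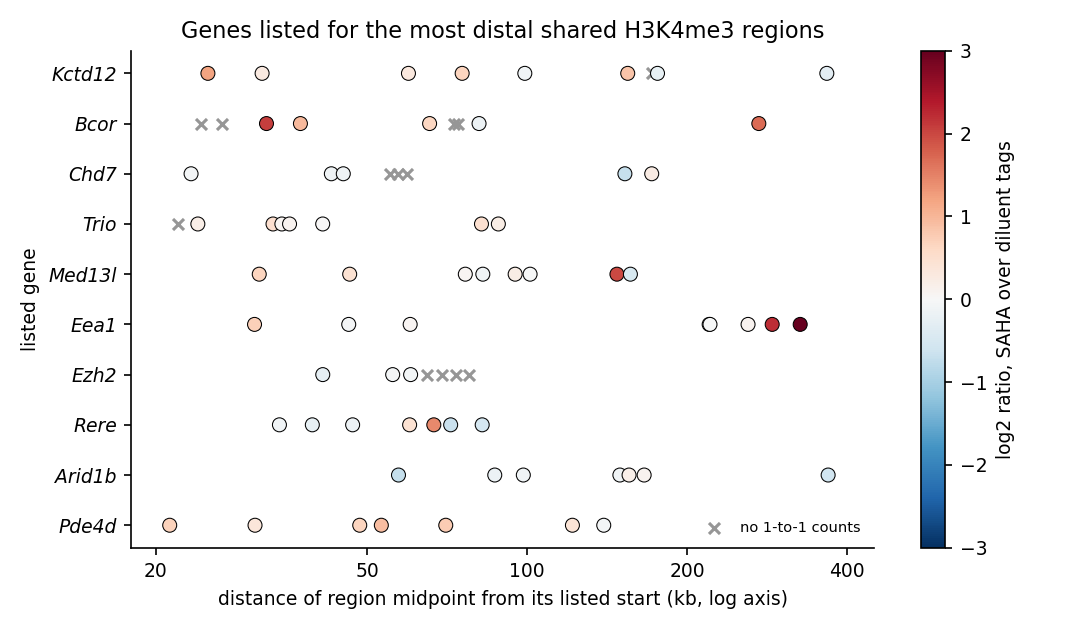
Members of the 10 named genes with the most members, by distance from the listed start of their own row (kb, log axis). Colour gives the log2 ratio of SAHA over diluent tags, and crosses are members without 1-to-1 counts in both libraries. Members of 1 gene differ in colour, as in Eea1, where the 2 most distant members are at 2.22 and 3.01 and the others lie between -0.06 and 0.71.

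Tags in SAHA over tags in diluent could be compared at 3150 of the 3514 members (89.6%), those overlapping 1 to 1 with the same ends in both single-library tables. Counts were scaled to the filtered tags, 21428355 in SAHA and 22420200 in diluent. The median log2 ratio of members was 0.15 (interval 0.12 to 0.16, quartiles -0.18 and 0.56), against -0.03 in 14009 other shared pairs and 0.14 in pairs 5 to 20 kb from a start. At least 2-fold more tags in SAHA were found at 296 members (9.40%), where the background over all 17704 shared pairs was 4.96%. At least 2-fold fewer were found at 50 members (1.59%), where the background was 1.01%. The counting interval lay above 0 at 917 members (29.1%, background 24.2%) and below 0 at 366 (11.6%, background 24.3%).

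**Figure D3:**
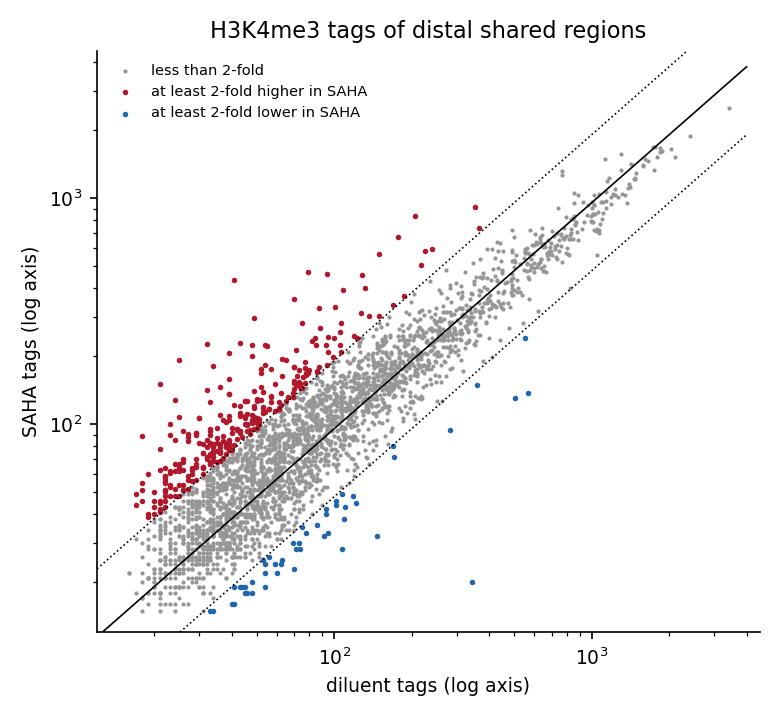
H3K4me3 tags per member in SAHA (vertical) against diluent (horizontal), both on log axes, with equal depth-scaled tags as a solid line and 2-fold differences as dotted lines. The 296 members at least 2-fold higher in SAHA (red) lie mostly below 100 diluent tags, and the 50 at least 2-fold lower (blue) include Tlr1 at 20 SAHA and 342 diluent tags.

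The ratio was higher in weaker regions, in members and others alike. Members of 16 to 40 diluent tags had a median log2 ratio of 0.34 (0.28 to 0.44), against 0.45 (0.40 to 0.51) in other regions of that strength. At 71 to 150 tags the medians were 0.18 in members and 0.17 in the others, and at 151 to 1000 tags -0.05 and -0.03. Above 1000 tags, 63 members had a median of -0.18 (-0.23 to -0.14), against -0.09 in 4477 others. Diluent tags enter both the class and the ratio, and the part of this in the slope was not tested. In no strength class did the members' interval lie above that of the other regions. Above 1000 tags it lay below the interval of the others (-0.092 to -0.082), a difference that was not tested.

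**Figure D4:**
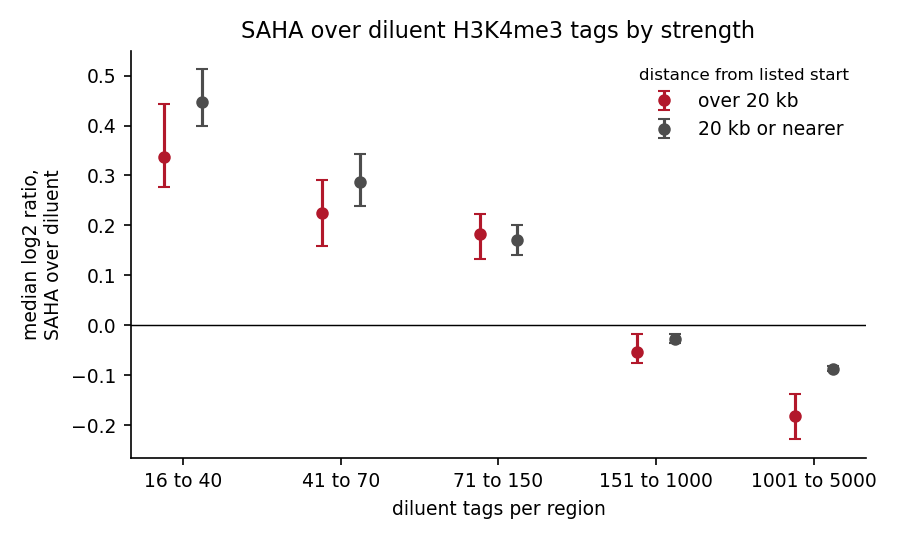
Median log2 ratio of SAHA over diluent H3K4me3 tags by diluent tags per region, for regions over 20 kb from their listed start (red, the members) and nearer ones (grey); bars are 95% order-statistic intervals. The median falls from 0.34 to -0.18 across the classes in members, and from 0.45 to -0.09 in the nearer regions.

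Most of the large differences in tags came with a change in called width. The SAHA region was at least 2-fold wider at 61 members (1.94%), against 0.914% of the other shared pairs. It was at least 2-fold narrower at 15 members (0.476%), against 0.264% of the others. Per kb of called region the median log2 ratio was 0.09 in members and -0.09 in the others. Per kb, 44 members (1.4%, background 0.779%) were at least 2-fold higher and 14 (0.444%, background 0.175%) at least 2-fold lower.

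The largest ratio was at Aim2. A member 56.7 kb downstream of Aim2, the cytosolic DNA sensor, at chr1:175406955-175407926, held 434 tags in SAHA and 41 tags in diluent, a log2 ratio of 3.47 (3.01 to 3.97). Its called width was 6086 bp in SAHA and 972 bp in diluent, and per kb the log2 ratio was 0.82. At Eea1, members 327 and 289 kb downstream had 192 and 142 tags in SAHA, against 25 and 32 tags in diluent (log2 ratios 3.01 and 2.22). The other 6 Eea1 members lay between -0.06 and 0.71, so the 2 most distant stood apart from the rest.

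Id2 encodes a partner of basic helix-loop-helix factors that blocks their DNA binding and is needed for some dendritic cell subsets. It had 5 members, all upstream. Those at 93.4, 145 and 225 kb held 234, 151 and 297 tags in SAHA, against 82, 21 and 49 tags in diluent, with log2 ratios of 1.58, 2.91 and 2.66. Their called widths were 2303, 2119 and 2418 bp in SAHA and 1566, 473 and 957 bp in diluent. Per kb their log2 ratios were 1.02, 0.75 and 1.33. The members at 244 and 292 kb held 34 and 44 tags in SAHA, against 25 and 46 tags in diluent, with intervals that include 0. The member at 145 kb, chr12:25925511-25925983, overlapped a SAHA STAT3 region with a score of 96.07 in the authors' deposited list and no diluent STAT3 region.

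Rel, the c-Rel subunit of NF-kB, had 2 members upstream, both higher in SAHA. They held 230 and 393 tags in SAHA, against 43 and 108 tags in diluent, with log2 ratios of 2.48 (2.01 to 2.99) and 1.93 (1.62 to 2.25). Of 538 genes with several ratios, only Rel, Tigit (an inhibitory receptor) and Tlr5 (the flagellin receptor) had all of them at least 2-fold higher. Per kb of called region this held for none of them. The log2 ratios per kb were 1.39 and 0.75 at Rel, 0.58 and 0.49 at Tigit, and 0.996 and 0.48 at Tlr5. Ratios of 1 gene otherwise varied nearly as much as ratios at large: across 1370 members of 538 genes, the SD of log2 ratios was 0.59 within genes and 0.63 overall. The remaining large ratios were at members of Anxa3 (an annexin; 470 tags in SAHA, 79 in diluent), Fyb (an adaptor of immune receptor signalling; 128 in SAHA, 24 in diluent) and Fth1 (the ferritin heavy chain; 181 in SAHA, 34 in diluent). Per kb the log2 ratios of these members were 1.38, 0.66 and 0.36.

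Fewer members were far lower in SAHA. A member 33.0 kb downstream of Tlr1, which pairs with TLR2 to sense lipopeptides, at chr5:65289557-65292408, held 20 tags in SAHA and 342 tags in diluent, a log2 ratio of -4.03 (-4.76 to -3.38). Its called width was 483 bp in SAHA and 2852 bp in diluent, and a second Tlr1 member had 79 tags in SAHA and 32 in diluent. Members of Lrrc4 (a synaptic adhesion protein) and Myoz2 (a sarcomere protein) had 138 and 131 tags in SAHA, against 565 and 502 tags in diluent. Those of Baz2a, Ahdc1, Eapp and Dclre1a had 28 to 38 tags in SAHA, against 91 to 109 tags in diluent. Per kb, the Tlr1 member at 33.0 kb and those of Lrrc4 and Myoz2 were also more than 2-fold lower, at log2 ratios from -1.47 to -1.27. So were the Baz2a member (-1.14) and a Mir148a member at 92.0 kb (-1.42).

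The gene of the first microRNA printed above, Mir148a, had a run of 5 adjacent members 90.8 to 101 kb downstream, on chromosome 6 from 51118233 to 51129540, with fewer tags in SAHA where they were counted. The 2 members with counts in both libraries held 94 and 280 tags in SAHA, against 283 and 540 tags in diluent, with log2 ratios of -1.52 (-1.88 to -1.18) and -0.88 (-1.10 to -0.67). Of the 5 members, 2 overlapped a SAHA STAT3 region and none a diluent one. A sixth member, at 140 kb, held 48 tags in SAHA and 47 in diluent.

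Most other microRNA loci had ratios nearer to 0. Mir29a and Mir29b-1, which share a seed, had members with 53 and 341 tags in SAHA, against 58 and 439 tags in diluent, and the width limit left out 2 stronger regions of Mir29b-1. A member of Mir30d, 20.5 kb upstream, had 1037 tags in SAHA and 882 in diluent. Another, 22.4 kb upstream, had 365 tags in diluent and no count in SAHA. A member of Mir3075 was higher, with 225 tags in SAHA and 54 in diluent (log2 ratio 2.12, 1.69 to 2.58). Of the 30 microRNA genes, 7 had an H3K4me3 region at a listed start. A listed start is that of the microRNA's own row. Starts of longer transcripts that hold a microRNA were not examined, so these members may lie nearer to such a start.

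STAT3 regions lay on a small part of the members, and the lists as deposited gave more such members in SAHA than in diluent. A region of the SAHA STAT3 list overlapped 222 members (6.32%, 5.54 to 7.17%), and a region of the diluent STAT3 list overlapped 122 (3.47%, 2.89 to 4.13%). The background over all regions of the diluent H3K4me3 list was 9.42% for SAHA STAT3 and 3.91% for diluent STAT3. The STAT3 lists held 8552 regions in SAHA and 3507 in diluent, and 2.63% of the SAHA list and 3.42% of the diluent list lay on members. With the SAHA list cut to its highest-scoring regions, as many as in the diluent list, its share of members was 3.59%, close to the 3.47% of the diluent list. Without a control, the authors called 784 STAT3 regions in the SAHA library and 844 in the diluent library. Both STAT3 lists overlapped 29 members, and at 27 of these the STAT3 regions of the 2 lists overlapped each other.

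The share with SAHA STAT3 was higher in wider regions. Among regions of 501 to 1000 bp, 4.93% of members (3.91 to 6.13%) and 3.49% of the others (2.84 to 4.24%) had one. Among those of 1001 to 2000 bp the shares were 6.67% and 6.40%, and among those of 2001 to 5000 bp 14.0% and 14.6%. For diluent STAT3 the classes up to 2000 bp likewise overlapped in their intervals, but among regions of 2001 to 5000 bp the share was 9.97% of members (6.92 to 13.8%, 32 of 321) and 5.10% of the others (4.63 to 5.61%). That last pair of intervals does not overlap, and the difference was not tested. The others pool all distances up to 20 kb, and the width classes were not split by distance. Over all widths, regions 5 to 20 kb from their listed start had a diluent STAT3 region in 4.21% of cases, against 3.47% of members. For SAHA STAT3 these shares were 6.42% and 6.32%.

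**Figure D5:**
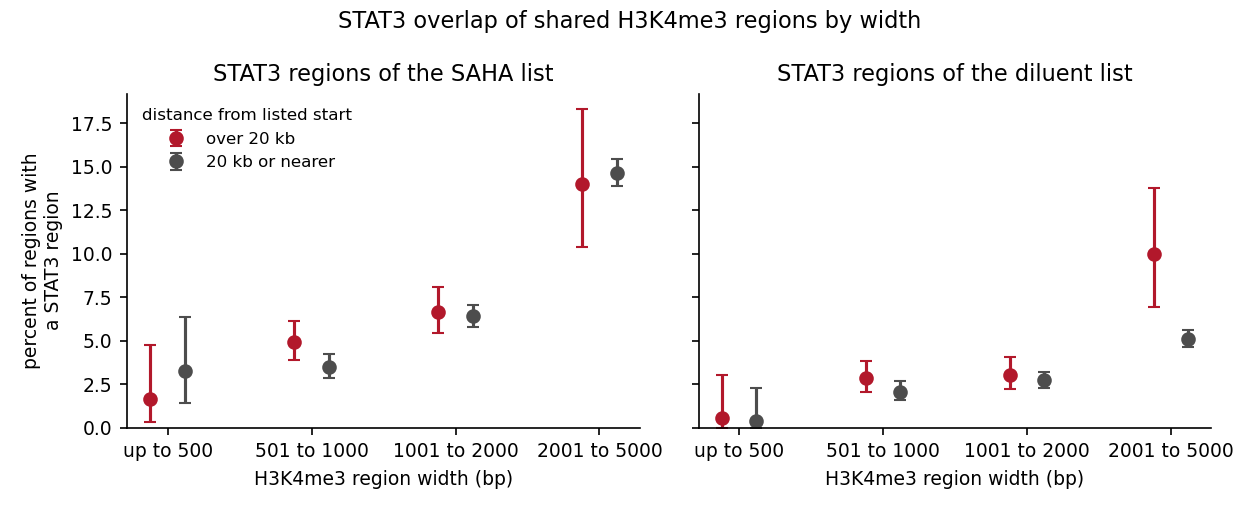
Percent of shared H3K4me3 regions that overlap a STAT3 region of the SAHA list (left) and of the diluent list (right), by H3K4me3 width, for regions over 20 kb from their listed start (red, the members) and nearer ones (grey); bars are exact 95% intervals. Shares are higher in wider regions. In diluent STAT3 at 2001 to 5000 bp they are 9.97% of members and 5.10% of the nearer regions, which pool all distances up to 20 kb.

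Members with STAT3 in both conditions included one of Mir21. This member of Mir21, a microRNA known as a STAT3 target in human myeloma cells, lay 40.1 kb upstream at chr11:86437279-86438146. It held 76 tags in SAHA and 36 tags in diluent (log2 ratio 1.14, 0.55 to 1.76). Its STAT3 score was 44.87 in the SAHA list and 120.11 in the diluent list of the authors' deposited tables, the highest diluent score on a named member. The member of Pde4b, a cyclic AMP phosphodiesterase gene, 35.2 kb downstream, held 93 tags in SAHA and 33 tags in diluent (log2 ratio 1.56, 0.97 to 2.18). Members of Hlx and Dlx2, homeobox genes, had log2 ratios of 0.11 and 0.12, and that of Sulf1, an extracellular sulfatase gene, -0.36, each with an interval that includes 0. Members of Asprv1, Atp8b1, Tmprss13, Klf7 and Rap2b were also among the 29.

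The highest SAHA STAT3 score on a named member in the authors' deposited list was 170.03, at a member 369 kb upstream of Arid1b (chr17:4625986-4626729). It held 127 tags in SAHA and 200 tags in diluent, a log2 ratio of -0.59 (-0.92 to -0.26). Next came Sulf1 at 114.74, Tmprss13 at 106.57, the Id2 member at 96.07 and Iqgap1, a scaffold of the actin cytoskeleton, at 80.09, in the same deposited list. In the diluent list the authors' deposited scores were 99.67 at Hlx, 92.22 at Atp6v1g3, 83.82 at Pde3b and 82.86 at Pde4b. Scores rank regions within a list and are not compared between lists.

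The median H3K4me3 ratios with and without STAT3 had overlapping intervals. Members with a SAHA STAT3 region had a median log2 ratio of 0.11 (-0.02 to 0.22, n = 195), those with a diluent STAT3 region 0.17 (0.09 to 0.35, n = 96), and those with neither 0.14 (0.11 to 0.16, n = 2882). Members with SAHA STAT3 were stronger, with a median of 96 diluent tags, than those with neither, with 68.5.

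The share of genes with a member was counted in each gene list and set beside that of all genes. Of 25 dendritic cell and myeloid factor genes in the H3K4me3 list, 12 (48.0%) had a member, beside 17.3% of all genes. Their 31 members had a median log2 ratio of 0.50 over 29 pairs, beside 0.15 over all members. Of these pairs, 5 were at least 2-fold higher and none 2-fold lower. Over all members the shares were 9.40% and 1.59%, and over all pairs 4.96% and 1.01%. The 5 included Id2 members at 1.58, 2.91 and 2.66 and a Bcl6 member at 1.45, and members of 1 gene are not independent. Members of Runx1 lay between -0.22 and 0.40. Lists of other cell types, which are shorter, reached shares from 25% to 50%: a member was found for 4 of 12 macrophage and monocyte markers (33.3%), for 2 of 4 markers of B cells (50%), for 1 of 3 of NK cells (33.3%) and for 1 of 4 erythroid markers (25%). No marker of T cells (6 listed) or of granulocytes and mast cells (5 listed) had one. A member of Ccr7, the receptor that guides mature dendritic cells to lymph nodes, held 1324 tags in SAHA and 766 tags in diluent (log2 ratio 0.85, 0.73 to 0.99). The strongest of 4 members of Bcl6, a transcriptional repressor, held 917 tags in SAHA and 351 tags in diluent (1.45, 1.27 to 1.63). Members of Runx3 and Tcf4, transcription factors of dendritic cell subsets, had log2 ratios of 0.43 to 0.93 and 0.22 to 0.66.

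Costimulation genes had members in 6 of 15 cases (40%). That of Pdcd1lg2, the PD-L2 ligand of PD-1, inside the gene, held 834 tags in SAHA and 206 tags in diluent (log2 ratio 2.08, 1.86 to 2.31). Its called width was 7221 bp in SAHA and 3372 bp in diluent. A member of Cd86, a ligand of CD28, held 1053 tags in SAHA and 852 in diluent, and that of Icosl 134 in SAHA and 217 in diluent. Of 33 TLR and NF-kB genes 8 (24.2%, beside 17.3% of all genes) had a member. Of their 14 ratios, 4 were at least 2-fold higher and 2 lower, beside 9.40% and 1.59% of all members and 4.96% and 1.01% of all pairs. One of 4 members of Tnfaip3, the A20 inhibitor of NF-kB, had 242 tags in SAHA and 100 in diluent.

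The other pathway lists ranged around the 17.3% of all genes. Of 31 JAK-STAT genes 6 (19.4%) had a member, none of them with a 2-fold ratio or a STAT3 region, and the strongest, of Jak1, held 906 tags in SAHA and 1134 in diluent. AP-1 and stress factor genes had members in 6 of 22 cases (27.3%), histone deacetylase and acetyltransferase genes in 3 of 18 (16.7%), and H3K4 methylation enzyme genes in 1 of 14 (7.14%). Of 22 inflammatory cytokine and chemokine genes only Il12a had members (4.55%), and of 16 antigen presentation genes none.

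The label of the cells was checked at gene starts. All 25 dendritic cell and myeloid factor genes found in the H3K4me3 list had a marked start in SAHA and in diluent, and 11 of 12 macrophage and monocyte genes did. Over all genes of the list, the share with a marked start in diluent was 88.0%. Under these names, Spi1, Cebpb and Gfi1 of the first set and Cd68, Lyz1, Marco and Cx3cr1 of the second were listed for no region. Of the B cell genes, 2 of 4 had one in SAHA and 1 of 4 in diluent, and Ms4a1, Cd79a and Pax5 were listed for no region. Of 6 T cell genes found, 4 had a marked start in each condition, while Cd3e, Cd3g, Cd4 and Cd8a were listed for none. Of NK and erythroid genes found, 1 of 3 and 4 of 4 had a marked start in each condition, and of granulocyte and mast cell genes 5 of 5 in SAHA and 4 of 5 in diluent. Of members listed for genes of other lineages, those of Klrb1c had 610 and 1012 tags in SAHA, against 650 and 1262 tags in diluent.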

How the data were processed

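The submitters' processing notes name BWA and the build mm9 for the reads of 38 bp; the aligner's version is not given. The authors called regions of each library without a control with MACS 1.4.0rc2, per the file headers, keeping at most 2 duplicate tags per position. These deposited tables give a tag count per region, a fold enrichment (ratio over local background) and a score. Lists against IgG, deposited without a header, hold a score and 1 transcript per region, and their calling is not described in the sources used here. Filtered tags numbered 17810183 and 21428355 in SAHA (STAT3, H3K4me3), against 25013431 and 22420200 in diluent, and 18925827 for IgG.

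Overlap meant at least 1 bp. Tag ratios used 1-to-1 pairs with the same ends in both tables, scaled to filtered tags, with exact conditional binomial 95% intervals, shares had Clopper-Pearson intervals, and medians order-statistic intervals. The calculation of the ratio intervals was checked on simulated counts. Positions are 1-based mm9. Python 3.11.15, pandas 2.3.3 and scipy 1.17.1 were used. Spreadsheet date symbols were left as they stood, and 2024 of 2448 member genes matched RefSeq names.

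Members and gene lists were chosen with earlier results of these data known. Named were the 10 strongest members, the 10 genes with most members, up to 10 members with both STAT3 lists and the 5 highest STAT3 scores per list, the 8 highest and 8 lowest ratios among members of at least 50 tags in 1 library, up to 4 genes per gene list and 3 regions on each side of each limit; unnamed genes were passed over. Members of Id2, Slc22a16, Mir3075, Mir30d, Mir29a, Mir29b-1, Tigit, Tlr5, Klrb1c and Pim1 beyond those rules were named after their values were seen.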

Additional observations from a re-analysis of the deposited data

How the results depend on the processing

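Of 61 values under alternative settings, 39 stayed within the counting interval or within 1.5 times. A distance of 10 or 50 kb gave 5393 or 1437 members and 1037 or 233 genes with several members. The share with SAHA STAT3 was 7.24% beyond 50 kb, 7.31% with STAT3 within 500 bp and 3.59% with the SAHA list cut to the length of the diluent list. The share with diluent STAT3 was 2.82% at widths up to 2000 bp and 1.85% at scores of at least 40. The median log2 ratio was 0.17 at widths up to 2000 bp, 0.10 at H3K4me3 scores of at least 100, 0.089 per kb, 0.18 scaled to total reads, 0.18 at 50 tags or more in 1 library and 0.065 where called widths were alike. Above 150 diluent tags, chosen after seeing the data, it was -0.066, with 9 members 2-fold higher and 8 lower. Members 2-fold higher numbered 44 per kb and 24 at like widths, and lower ones 14 and 11. By construction the settings of distance, H3K4me3 width, H3K4me3 score, tags and like widths change which members enter. The settings of the STAT3 window and STAT3 lists keep the members and change what counts as an overlap. The scaling to total reads and the tags per kb change only the ratio, and the cause of those shifts was not tested. No paired analysis was possible because each group had 1 library; no replicate could be left out for the same reason.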
